A study of Schizosaccharomyces pombe with 6 samples.

Results

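The genes described here encode enzymes of glycolysis, alcoholic fermentation and gluconeogenesis in fission yeast. They are 10 gene identifiers chosen for the reactions assigned to them, out of the 6345 genes of the deposited table (1286 with an SPNCRNA identifier, taken as ncRNAs, and 5059 others, taken as mRNAs). The rule used no measured value, but the members were chosen with earlier results of these data known. Of the 10 identifiers, 9 have a row. Names were checked against the ASM294v3 annotation, and 2 of the identifiers did not carry the enzyme gene they were listed for. SPAC13A11.06, listed as *pdc101*, is the pyruvate decarboxylase gene *pdc202* in that annotation and is named so here. SPAC4H10.09c, listed as *pyk1*, is not analysed here. The annotation gives *pyk1* as SPAC4H3.10c and *pdc101* as SPAC1F8.07c, and both are described below among the other genes of the pathway.

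RNA was measured in 3 wild-type libraries (strain EHB7, h+ with ade6-210, leu1-32, ura4-D18 and an *ade6+* reporter at otr1R(Sph1), in the outer repeats of centromere 1) and in 3 *mkt1Δ* libraries (strain EHB2196, with the same mating type, alleles and reporter and *mkt1* replaced by NatR). Both strains grew exponentially in YES, a rich glucose medium, at 32°C, and the study asked whether loss of the post-transcriptional regulator Mkt1 changes gene expression. The measurement used here is the authors' mean log2 CPM of each gene (CPM are counted reads scaled to a common library total, here on a log2 scale), which is 1 value over all 6 libraries of both strains. It holds no value per library and no error, so the strains are not compared here, the loss of *mkt1* RNA cannot be checked from it, the depth of each library is unknown, and genes with close values cannot be ranked against the spread between libraries.

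Glycolysis converts glucose to pyruvate, spending ATP at hexokinase and phosphofructokinase and regaining it at phosphoglycerate kinase and pyruvate kinase. In fermenting yeasts pyruvate is then decarboxylated to acetaldehyde and reduced to ethanol, which restores the NAD+ consumed by glyceraldehyde-3-phosphate dehydrogenase. Gluconeogenesis runs many of the same enzymes in reverse and bypasses phosphofructokinase with fructose-1,6-bisphosphatase, whose gene *fbp1* is a classical glucose-repressed gene of fission yeast.

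The 5 mRNAs with the most counted reads of all 5059 were enzymes of this set, namely *fba1*, *tdh1*, *adh1*, *pgk1* and *eno101*. Their mean log2 CPM lay between 12.31 and 12.72, against a median of 6.19 over all mRNAs and a 95th percentile of 9.57. *pfk1* and *gpd3* were lower but still above that percentile, *fbp1* was near the middle of the mRNAs and *pdc202* was well below it. Among the 9 genes with a row, 8 were above the median mRNA, and the median of the 9 was 12.31. The fifth place of *eno101* (12.314) is not established, since *cpc2*, *tpi1* and *pyk1* followed it at 12.306, 12.306 and 12.293. Because a long transcript collects more reads, levels of single enzyme genes are compared below mainly as CPM per kb of transcript. Transcript lengths are from ASM294v3 (5046 mRNAs have one, with a median of 40.2 CPM per kb). Per length, *fba1*, *tdh1*, *adh1*, *pgk1* and *eno101* stood at ranks 5, 11, 15, 21 and 33. Order in counted reads, shares, medians of gene lists, chromosomal neighbours and overlapping genes are given without correction for length.

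**Figure D1:**
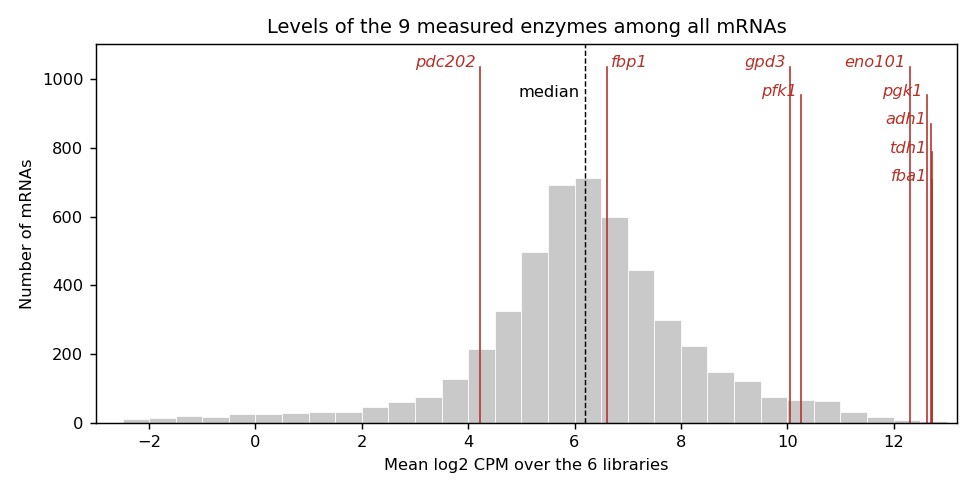
Number of mRNAs (vertical axis) in bins of the mean log2 CPM over the 6 libraries (horizontal axis), with a red line for each of the 9 enzyme genes that have a row and a dashed line at the median of 5059 mRNAs (6.19). The 5 enzymes at the right end lie between 12.31 and 12.72, *pfk1* and *gpd3* at 10.26 and 10.06, *fbp1* at 6.61 and *pdc202* at 4.23.

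Phosphofructokinase, which commits sugar to glycolysis, is encoded by *pfk1* (SPBC16H5.02). Its mean log2 CPM was 10.26, which placed it at rank 156 of the mRNAs from the top. Its transcript of 3228 bases is the longest of the set, and per length its level of 379 CPM per kb gave rank 349. It was thus the lowest of the glycolytic members per length, although in counted reads it stood above *gpd3*.

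Aldolase, which cleaves fructose-1,6-bisphosphate into a pair of triose phosphates, is encoded by *fba1* (SPBC19C2.07). With a mean log2 CPM of 12.72, or 6733 CPM, it had the highest value of any row in the table, ncRNAs included. Its lead over *tdh1* was only 0.0002 on the log2 scale, so the order of these genes is not established. Per length *fba1* reached 5264 CPM per kb and stood at rank 5.

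Glyceraldehyde-3-phosphate dehydrogenase, which produces NADH and a high-energy acyl phosphate, is encoded by *tdh1* (SPBC32F12.11) and *gpd3* (SPBC354.12). *tdh1* had a mean log2 CPM of 12.72 and a level of 4621 CPM per kb, at rank 11 per length. *gpd3* had a mean log2 CPM of 10.06 and a level of 762 CPM per kb, at rank 221 per length. The *tdh1* level was 6.06 times that of *gpd3* per kb of transcript, and 85.8% of the level of this step came from *tdh1*. HTSeq in union mode, with which the authors counted, by default sets aside reads aligned to several places, so reads common to related genes may be missing from these and the other isozymes. How many were lost was not tested.

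Phosphoglycerate kinase, which makes ATP from 1,3-bisphosphoglycerate, is encoded by *pgk1* (SPBC14F5.04c). Its mean log2 CPM was 12.63 and its level 3855 CPM per kb, at rank 21 per length. Enolase, which forms phosphoenolpyruvate, is encoded by *eno101* (SPBC1815.01). Its mean log2 CPM was 12.31 and its level 3496 CPM per kb, at rank 33 per length. In counted reads *eno101* was followed at a distance of only 0.01 on the log2 scale by *cpc2*, the RACK1 orthologue of the ribosome, whereas it lay 0.31 below *pgk1*.

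The last steps to ethanol are represented by *pdc202* (SPAC13A11.06), a predicted pyruvate decarboxylase, and *adh1* (SPCC13B11.01), the alcohol dehydrogenase. *adh1* had a mean log2 CPM of 12.69 and a level of 4147 CPM per kb, at rank 15 per length. *pdc202* had a mean log2 CPM of 4.23, or 18.7 CPM, and a level of 9.87 CPM per kb, lower than 90.3% of mRNAs per length. It was the only gene of the set with a row that lay below the median mRNA on either scale.

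The gluconeogenic gene *fbp1* (SPBC1198.14c) had a mean log2 CPM of 6.61, or 97.6 CPM, and a level of 57.1 CPM per kb. This was higher than 61.2% of mRNAs in counted reads and 61.9% per length, in cells taken from a glucose medium. The phosphofructokinase gene *pfk1*, which drives the opposite reaction, stood 6.64 times higher per kb of transcript, or 4.63 times with coding length. Of the other glucose-repressed genes on a list of 3, the invertase gene *inv1* had 24.9 CPM per kb and the glycerol dehydrogenase gene *gld1* had 190 CPM per kb, so *fbp1* lay between them.

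The 12 other genes of the pathway show where the set sits among its partners. Triosephosphate isomerase (*tpi1*, SPCC24B10.21) and phosphoglycerate mutase (*gpm1*, SPAC26F1.06) had 5291 and 5408 CPM per kb, close to *fba1* and at ranks 4 and 3 per length. Pyruvate kinase (*pyk1*, SPAC4H3.10c) and the pyruvate decarboxylase gene *pdc101* (SPAC1F8.07c) had mean log2 CPM values of 12.29 and 11.98 and levels of 2595 and 2148 CPM per kb. These are the genes that SPAC4H10.09c and SPAC13A11.06 were listed as, and *pdc101* was 218 times higher per kb of transcript than *pdc202*. Of the 12 mRNAs with a mean log2 CPM above 12, 5 were members and 3 were other genes of the pathway. Of the 20 highest mRNAs in counted reads, 5 were members and 4 were other genes of the pathway, and per length the numbers among the 20 highest were 3 and 2.

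At each step with several genes in these lists, most of the level came from a single gene. Enolase was 99.6% *eno101*, with *eno102* at 12.4 CPM per kb. Pyruvate decarboxylase was 98.9% *pdc101*, and *pdc202*, *pdc201* and *pdc102* followed with 9.87, 8.89 and 4.29 CPM per kb. Alcohol dehydrogenase was 93.9% *adh1*, with *adh4* at 272 CPM per kb. Hexokinase was the most even of these steps, with 805 CPM per kb for *hxk2* and 286 CPM per kb for *hxk1*.

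Summed over the genes of a step, the first 3 steps of glycolysis were lower than all 9 that follow. Hexokinase, glucose-6-phosphate isomerase and phosphofructokinase had 1092, 948 and 379 CPM per kb, whereas the steps from aldolase to alcohol dehydrogenase ranged from 2171 CPM per kb (pyruvate decarboxylase) to 5408 CPM per kb (phosphoglycerate mutase). The lowest of the later steps was 1.99 times the highest of the first 3, or 1.54 times with coding length in place of transcript length. This division was chosen after the values were seen, and no error can be attached to it.

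**Figure D2:**
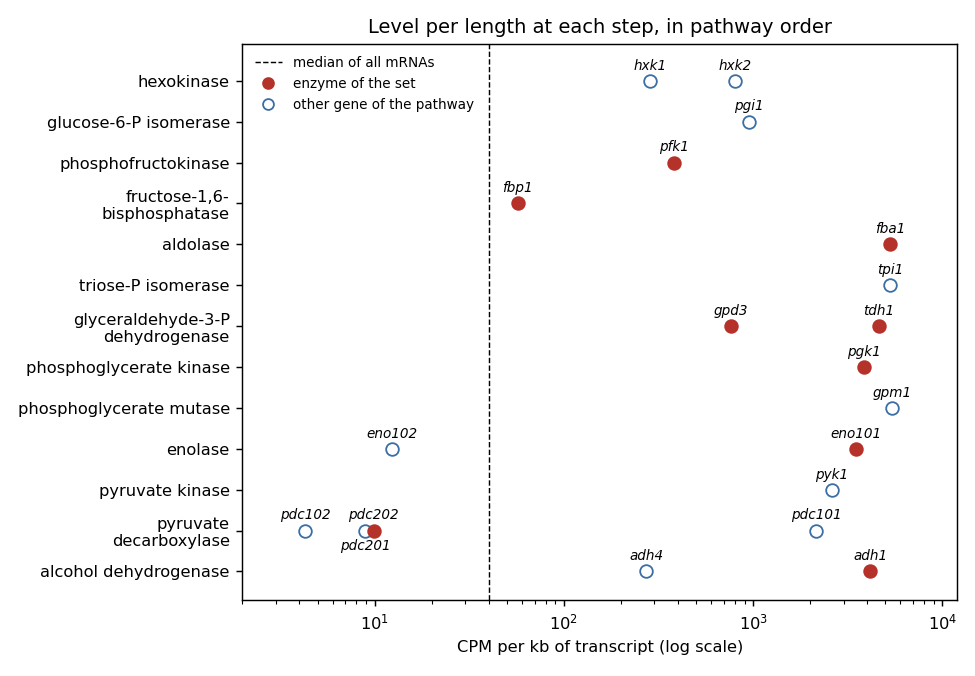
CPM per kb of transcript on a log scale (horizontal axis) for the genes of each step from hexokinase to alcohol dehydrogenase (vertical axis), with filled points for the enzymes of the set, open points for other genes of the pathway and a dashed line at the median of all mRNAs (40.2). From aldolase downward each step has a gene at 2148 CPM per kb or more, while the minor genes *eno102*, *pdc102*, *pdc201* and *pdc202* lie below the dashed line.

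Together the 9 members with a row took 33916 CPM, or 3.39% of the counted reads, and the 5 most abundant took 3.15%. With the 12 other genes of the pathway the share was 5.73%. By comparison the 14 genes of the tricarboxylic acid cycle that could be matched took 0.688% in the pooled strains. Their median mean log2 CPM was 8.69, against 12.31 for the members, 10.004 for the 12 other genes of the pathway and 10.48 for all 21, and none of them was among the 100 highest mRNAs. The medians of the pentose phosphate genes (7 genes) and the glycerol genes (5 genes) were 9.28 and 8.52. The hexose transporters spanned a wider range, from 0.62 for *ght6* to 10.97 for *ght5*, and none reached the level of the 5 most abundant enzymes. These differences between lists are descriptions and were not tested.

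**Figure D3:**
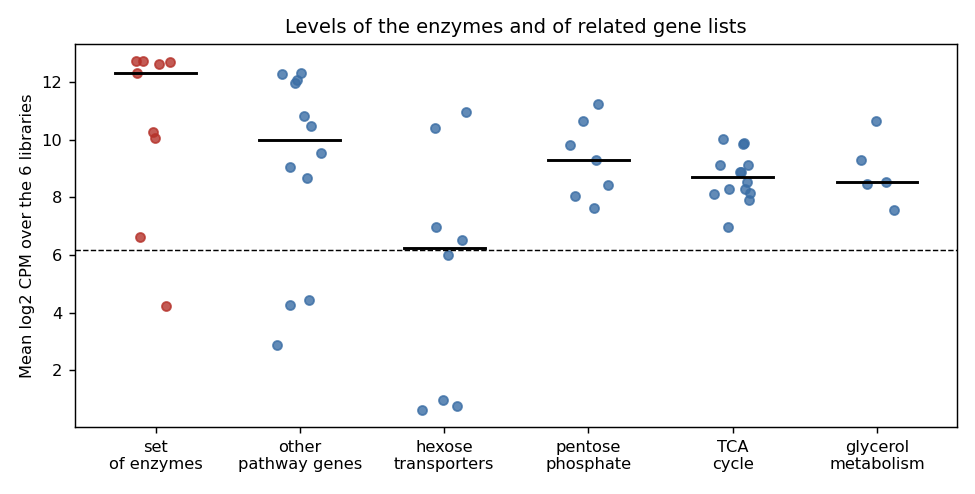
Mean log2 CPM over the 6 libraries (vertical axis) of each gene in the enzyme set (red) and in the lists of other pathway genes, hexose transporters, pentose phosphate, tricarboxylic acid (TCA) cycle and glycerol genes (blue). Black bars are list medians and the dashed line is the median of all mRNAs. The median of the set, 12.31, is at or above the highest gene of every other list shown.

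Features that did not enter the choice of the genes were also recorded. Of the 9 with a row, 8 have a single exon in ASM294v3 (*gpd3* has 2), against 51.2% of the 5046 mRNAs matched to that annotation. The same held for 11 of the 12 other genes of the pathway, 8 of 8 hexose transporters and 5 of 5 glycerol genes. Of the 9, 7 lie on chromosome II, which holds 1838 of the 5046 matched mRNAs. Of the 12 other genes of the pathway 3 lie on chromosome II and 8 on chromosome I, *pyk1* and *pdc101* among the latter, so this count depends on which genes of the pathway were chosen. The median coding length of the 9 with a row was 1077 bases, against 1143 bases over all mRNAs.

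The nearest coding genes on both sides of the 9 loci, 18 in all, had a median log2 CPM of 5.76, against 6.19 over all mRNAs, and ranged from -1.11 to 10.15. The highest was *sam1* (S-adenosylmethionine synthetase), next to *pgk1*, with a mean log2 CPM of 10.15. The paper lists *sam1* among the genes lowered in *mkt1Δ*, so this value pooled over both strains need not describe either. *tdh1* lies beside another gene of sugar metabolism, the phosphoglucomutase gene *pgm1*, which had 9.32. The gene for securin, *cut2*, beside *eno101*, had 4.75. Since 7 of the enzyme genes are among the most abundant mRNAs, nearly any neighbour would be lower, and only *fbp1* and *pdc202* lie low enough to have higher ones. Both neighbours of *pdc202* were higher, at 7.97 and 8.16, as was 1 of those of *fbp1*, at 7.75.

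In ASM294v3, 7 of the 9 enzyme genes are overlapped by a gene on the opposite strand. How common such overlaps are among other mRNAs was not tested, so this count does not set the enzyme genes apart. In 3 of the 7 loci an overlapping gene has a row of its own. SPNCRNA.1324 covers the whole of *fbp1* and had a mean log2 CPM of 4.43, so that *fbp1* had 4.53 times as many CPM. SPNCRNA.662 covers the whole of *pdc202* and had a mean log2 CPM of 1.74, so that *pdc202* had 5.62 times as many. Neither ratio is corrected for length. The third, *uba2*, overlaps 2.42% of *pfk1* and had a mean log2 CPM of 5.85. The ncRNAs SPNCRNA.5585 and SPNCRNA.5586 also cover 23.5% and 7.71% of *pfk1* and are not analysed here. In the other 4 loci ncRNAs cover the whole of *pgk1* and *adh1*, 33.1% of *gpd3* and 7.90% of *fba1*, and these ncRNAs are not analysed here. The libraries were stranded, but whether strand was used in counting is not given in the sources used here. Union mode sets aside reads that fall on more than 1 gene. *fbp1* and *pdc202*, which are covered throughout in ASM294v3, had 97.6 and 18.7 CPM. *pgk1* and *adh1*, also covered throughout, had 6326 and 6626 CPM. Whether reads were lost to the overlaps was not tested. The overlaps are those of ASM294v3, another annotation than the one the reads were counted on.

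**Figure D4:**
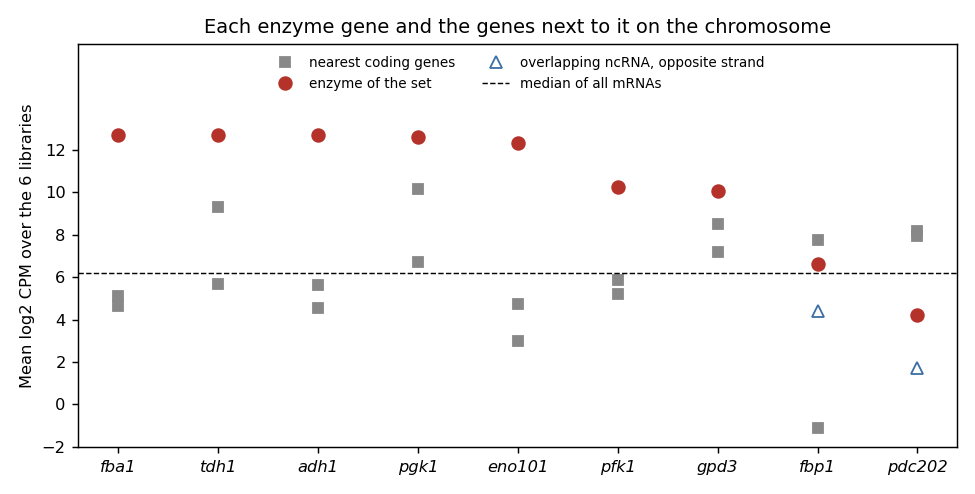
Mean log2 CPM over the 6 libraries (vertical axis) of each enzyme gene (red circles), its nearest coding gene on each side (grey squares) and any ncRNA with a row that overlaps it on the opposite strand (open triangles), with a dashed line at the median of all mRNAs. The neighbours spread around the dashed line at 6.19, with *sam1* beside *pgk1* the highest at 10.15, and *pdc202* at 4.23 lies below both of its own.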

How the data were processed

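RNA from 3 wild-type and 3 *mkt1Δ* cultures was sequenced after stranded mRNA library preparation. Per the labels and methods, the authors' processing used cutadapt 1.8.3 for trimming, STAR 2.5 for alignment to ASM294v2, HTSeq 0.6.1 (union mode) for counting and edgeR 3.12.0 for the strain comparison, after rarely read genes had been dropped. The deposited table gives for each gene a mean log2 CPM over the 6 libraries, which was the measurement used here. Its 3 other numeric columns are the authors' own comparison of the strains (its fold change on a log2 scale, the p-value and the FDR) and were not used. No values per library were used, so no test was made and the precision of each value is unknown.

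Identifiers were matched without regard to case to ASM294v3, another build than the authors', which matched 6299 of 6345 rows. Only names, lengths, exon numbers and gene order were taken from it. CPM was 2 to the power of the mean log2 CPM, and these values summed to 1000600 over all rows. The paper does not state whether the libraries were averaged as CPM or as log2 CPM. The term mean log2 CPM stands for either here. Level per length was CPM per kb of the longest annotated transcript. Percentiles are the share of mRNAs with a lower value. The percentile computation was tested on simulated data. The genes named are the members, the genes of lists of symbols for related pathways and the mRNA next to each member in level. Chromosomal neighbours and overlapping genes were added to these with the data in view. *lsc1* and *sdh4* were left out because the annotation gives these names to other genes. The members and lists were chosen with earlier results of these data known. The alternatives were other reference sets, a mean log2 CPM above 0, coding length, and other totals for the share. Versions were Python 3.11.15, numpy 2.4.6, pandas 2.3.3, scipy 1.17.1 and matplotlib 3.10.9.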

Additional observations from a re-analysis of the deposited data

How the results depend on the processing

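The percentile of the set's median gene, above 99.9% of mRNAs in counted reads, was computed against other references. These were all rows, mRNAs without mitochondrial and dubious genes, and mRNAs above a mean log2 CPM of 0. It kept within its 95% Wilson interval, which holds no spread between libraries. A gene this near the top could hardly move when lower rows were added or dropped. Per length the median gene was above 99.3% of mRNAs, or 98.97% with coding length. The share of counted reads was 3.39%, 3.46% of the sum over mRNAs alone, and 4.30% with *pyk1* and *pdc101* taken by symbol in place of SPAC4H10.09c and SPAC13A11.06, an alternative chosen after the data were seen. Among single genes the percentile moved beyond its interval for 4 of 9 with all rows as the reference, where *pdc202* went from 11.96% to 26.1% and *fbp1* from 61.2% to 68.7%, and for 6 of 9 with coding length. The moves with all rows come from the ncRNAs added to the reference, and the interval holds no uncertainty in the level of a gene. No paired analysis was possible because each value used is a mean over both strains. The planned edgeR and DESeq2 fits, the block on replicate number, the filter on counts and leaving out each replicate need values of single libraries and were not run.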
